A study of Mus musculus with 15 samples.

Results

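Myelin and mature oligodendrocyte genes, 33 of the 27179 gene identifiers in the deposited count table, were followed through 15 RNA libraries of mouse medial prefrontal cortex. The members were given as a list of gene symbols known for their part in myelin, its lipids or the identity of the cells that make it, and all 33 were matched to an identifier. The study dissected the medial prefrontal cortex, a region that takes part in the extinction of learned fear, from C57BL/6J mice. Each sample carried a label for ABX, commonly short for an antibiotic cocktail, given or not given, and a label for stage, before or after fear extinction. This made 4 groups: pre-extinction non-ABX (pre non-ABX, n = 3, labelled replicates 1, 3 and 4), pre-extinction ABX (pre ABX, n = 4), post-extinction non-ABX (post non-ABX, n = 4) and post-extinction ABX (post ABX, n = 4). The labels used here name no age, no agents of the ABX treatment and no animal for a library, so each p-value reflects variation among libraries, which may be technical. The extraction text speaks of sorted cells although the source is dissected tissue, and markers of neurons, astrocytes, microglia and vessels were present in every library.

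Oligodendrocytes wrap the axons of the central nervous system in myelin, a stack of membrane rich in cholesterol and galactolipids and held together by a small set of abundant proteins. A cascade of transcription factors (Olig1, Olig2, Sox10, Nkx6-2, Myrf) commits precursor cells to this fate and then switches on the myelin genes. In the cortex myelin is sparse compared with white matter, and it is laid down and remodelled in adult life.

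The members differed widely in base composition, against which their fold changes are set further on. Taken over the longest transcript in build mm10, GC content ran from 38.0% in Ugt8a and Ermn to 64.3% in Nkx6-2, with a member median of 53.6% against 49.8% over all genes tested. The first 90 coding bases of 7 members that span this range are printed here, 5′ to 3′ on the coding strand from the start codon, with G and C in capitals; they were read from GENCODE M21 coordinates in the mm10 genome and each lies within 1 exon. Ugt8a, Ermn and Aspa stand at the GC-poor end, Ppp1r14a, Sox10 and Nkx6-2 at the GC-rich end, and Olig2 is the member that passed the test of extinction stage.
Ugt8a: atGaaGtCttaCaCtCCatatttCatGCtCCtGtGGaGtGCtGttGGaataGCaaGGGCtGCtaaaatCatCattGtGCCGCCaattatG
Ermn: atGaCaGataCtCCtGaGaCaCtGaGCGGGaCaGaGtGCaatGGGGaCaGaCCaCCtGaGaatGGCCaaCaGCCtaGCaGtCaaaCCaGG
Aspa: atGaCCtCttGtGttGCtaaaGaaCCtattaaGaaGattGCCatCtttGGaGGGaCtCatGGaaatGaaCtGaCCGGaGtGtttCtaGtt
Olig2: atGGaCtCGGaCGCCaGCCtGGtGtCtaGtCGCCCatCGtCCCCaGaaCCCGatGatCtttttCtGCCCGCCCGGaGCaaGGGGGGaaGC
Ppp1r14a: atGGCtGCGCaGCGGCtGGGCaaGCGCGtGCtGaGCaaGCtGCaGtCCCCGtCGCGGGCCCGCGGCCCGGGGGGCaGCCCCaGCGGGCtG
Sox10: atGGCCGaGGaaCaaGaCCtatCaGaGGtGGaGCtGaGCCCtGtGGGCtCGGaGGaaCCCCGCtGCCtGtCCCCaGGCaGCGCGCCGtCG
Nkx6-2: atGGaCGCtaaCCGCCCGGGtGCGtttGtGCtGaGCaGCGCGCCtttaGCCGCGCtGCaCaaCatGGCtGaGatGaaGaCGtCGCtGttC
These stretches lie at chr3:125915370-125915459 (minus strand, Ugt8a), chr2:58052627-58052716 (minus, Ermn), chr11:73324398-73324487 (minus, Aspa), chr16:91226400-91226489 (plus, Olig2), chr7:29289335-29289424 (plus, Ppp1r14a), chr15:79163627-79163716 (minus, Sox10) and chr7:139582450-139582539 (minus, Nkx6-2). Their GC content was 43.3%, 54.4%, 41.1%, 63.3%, 78.9%, 67.8% and 61.1% in that order. Ermn is GC-poor mostly beyond its coding start: its coding sequence as a whole was at 45.7% and the transcript after it at 35.2%. For Olig2 the coding sequence was at 69.7% and the whole transcript at 58.5%.

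Every member was detected in every library and passed the filter on low counts, in libraries of 44254906 to 57929503 counts. Levels are given as CPM, that is counts relative to the size of their library, adjusted by the trimmed mean of M-values, and levels of different genes are compared only per kilobase of the longest transcript. On that scale Mbp, which encodes myelin basic protein, was highest at 187 CPM per kilobase, followed by the lysophospholipase gene Enpp2 (116), Cnp (50.97), the transferrin gene Trf (46.1), the small heat shock protein gene Cryab (45.3) and Mal (44.9). Mobp, Mag, Qdpr, Apod, Cldn11, Mog, Ndrg1, Gsn, Olig1, Tspan2 and Pllp lay between 32.7 and 13.2 CPM per kilobase, in that order. Tmem88b, Ermn, Ugt8a, Sox10, Fa2h, Myrf, Olig2, Opalin, Gal3st1, Gjb1, Hapln2, Tmem125, Aspa, Ppp1r14a and Carns1 ran from 8.36 down to 1.37. Nkx6-2 was lowest at 0.4601 CPM per kilobase, resting on 12 to 102 counts per library. Neighbours in this order often lay closer than their spread: Cnp, Trf, Cryab and Mal, for example, fell within 44.9 to 51.0 CPM per kilobase, with within-group SDs of 0.15, 0.13, 0.19 and 0.15 on the log2 scale.

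Libraries of 1 group differed more in the median member than in the median gene tested, though not in every member. The median within-group SD of log2 CPM was 0.19 over the members and 0.163 over all genes tested, from 0.0976 in Enpp2 to 0.60 in Nkx6-2. Summed over the 33 genes, members took 2340 to 2796 CPM in pre non-ABX, 2242 to 2512 in pre ABX, 2453 to 2694 in post non-ABX and 2048 to 2737 in post ABX libraries. These ranges overlap throughout. In bulk tissue fewer oligodendrocytes and less RNA per oligodendrocyte cannot be told apart. Single libraries stood at the extremes of many members at once: pre non-ABX replicate 3 was the highest of 15 for 11 members, pre ABX replicate 1 and post non-ABX replicate 2 for 6 each and post ABX replicate 1 for 5. Post ABX replicate 2 was the lowest of 15 for 10 members, pre ABX replicate 3 for 8 and pre ABX replicate 1 for 4, so pre ABX replicate 1 was at both ends. In the heat map of library deviations, pre ABX replicate 1 and pre non-ABX replicate 3 show a split by gene, with GC-poor and GC-rich members at opposite signs. Other libraries at the extremes did not. Members below and members at or above the member median GC content had median deviations of -0.20 and -0.33 in post ABX replicate 2. These were -0.033 and -0.36 in pre ABX replicate 3, and 0.20 and 0.053 in post ABX replicate 1.

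**Figure D1:**
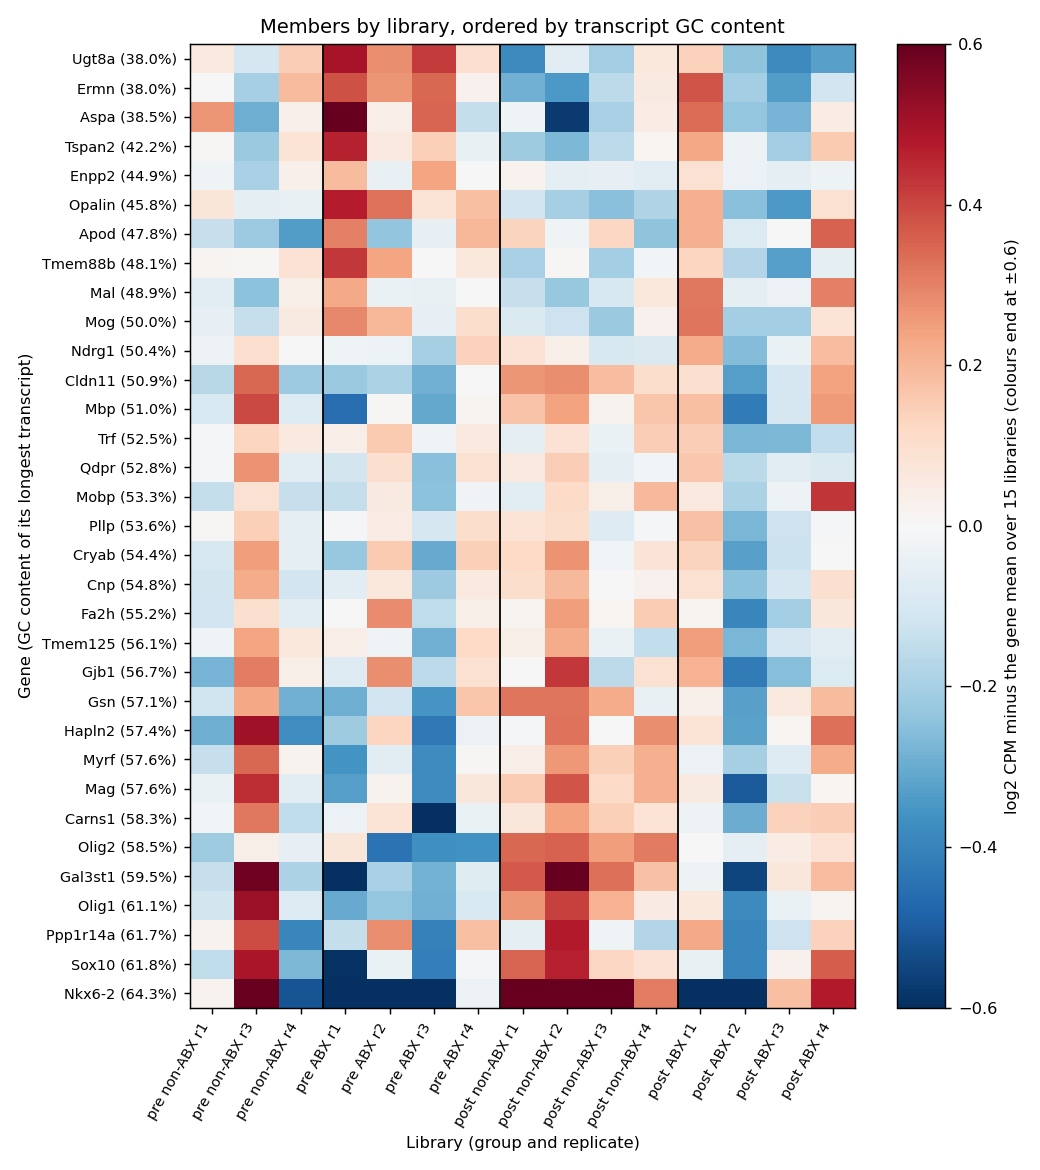
Heat map of the 33 members (rows, ordered by transcript GC content) in the 15 libraries (columns, by group), coloured by the log2 deviation of CPM from the gene's mean over all libraries. In pre ABX replicate 1 GC-poor members lie above and GC-rich members below their means, and in pre non-ABX replicate 3 the signs are the other way round.

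The comparisons asked whether ABX treatment before extinction, ABX treatment after it, or extinction stage in either arm went with different levels of these genes. A gene was called at an edgeR quasi-likelihood adjusted p under 0.05 over 16816 genes. Of the 33 members 0 were called for ABX before extinction, where 0.00595% of all genes were called, and 0 for ABX after extinction (0.0178%, with 0.0119% higher). Extinction stage gave 0 called members in non-ABX mice (0% of all genes) and 0 in ABX mice (0.0951%), and the difference between the ABX effects at the 2 stages gave 0 (0%). At an unadjusted p under 0.05 there were 6, 6, 1, 6 and 0 members (18.2%, 18.2%, 3.03%, 18.2% and 0%) in these 5 comparisons, against 15.97%, 13.3%, 4.94%, 16.6% and 2.06% of all genes. With both stages averaged, ABX gave 0 called members (0.624% of all genes, 0.464% as lower), and 11 members, 33.3%, had an unadjusted p under 0.05 against 30.6% of all genes. At this unadjusted level the members' shares in the comparisons so far lay near those of all genes. With both arms averaged, stage gave 1 called member, Olig2, which rose after extinction (0.963% of all genes were called, 0.22% as higher). There 5 members, 15.2%, had an unadjusted p under 0.05 against 20.4% of all genes. DESeq2, the other count model, called 0, 0, 0, 1, 0, 5 and 2 members in these 7 comparisons, in the order given, where it called 0.0892%, 1.06%, 0.113%, 1.71%, 0.0238%, 11.7% and 4.19% of all genes. The 5 members are 15.2% of the list and the 2 are 6.06%.

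Directions were mixed. The median member log2 fold change was -0.044 for ABX before extinction (13 higher, 20 lower), -0.11 for ABX after extinction (10 and 23), 0.070 for stage in non-ABX mice (20 and 13) and 0.0026 for stage in ABX mice (18 and 15), while the median over all genes lay between -0.0029 and 0.0087 in each. For the difference of ABX effects it was -0.064 (13 and 20), for ABX averaged over stages -0.080 (11 and 22) and for stage averaged over arms 0.023 (19 and 14). The median standard error of a single member was 0.12 to 0.13 in a pairwise comparison, 0.18 for the difference of ABX effects and 0.089 in an averaged comparison.

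Of the 13 genes for proteins of the myelin membrane and its junctions, 0 were called in any comparison. Their median log2 fold changes were -0.020, -0.076, 0.059 and 0.0024 for ABX before, ABX after, stage in non-ABX and stage in ABX mice, and -0.048 and 0.039 for the averaged ABX and stage comparisons. Mbp, whose protein compacts the cytoplasmic faces of the membrane, was at 832, 1167 and 839 CPM in pre non-ABX, 647, 890.0, 718 and 899 in pre ABX, 1000.5, 1047, 899 and 995 in post non-ABX, and 1006, 664, 827 and 1058 in post ABX libraries. Its groups overlapped in each comparison, with pre ABX replicate 1 lowest and pre non-ABX replicate 3 highest of the 15 libraries. Mobp, a gene for another compact myelin protein, stood at 96.6, 114 and 97.1 CPM in pre non-ABX, 96.8, 111, 89.9 and 105 in pre ABX, 102, 116, 109 and 122 in post non-ABX, and 111, 93.5, 104 and 144 in post ABX libraries. The highest value belongs to post ABX replicate 4 and the lowest to pre ABX replicate 3, with overlap in each pairwise comparison. Cnp encodes the phosphodiesterase of the non-compacted channels of the sheath, and its values were 137, 172 and 136 CPM in pre non-ABX, 141, 154, 127 and 153 in pre ABX, 158, 169, 147 and 150.3 in post non-ABX, and 157, 124, 137 and 157 in post ABX libraries. Its groups overlapped as well. Mag and Mog encode glycoproteins of the inner and the outermost surface of the sheath. Mag was at 71.2, 99.5 and 69.7 CPM in pre non-ABX, 58.1, 74.2, 56.3 and 76.8 in pre ABX, 81.2, 95.02, 79.2 and 84.7 in post non-ABX, and 75.9, 51.7, 66.7 and 73.8 in post ABX libraries. After extinction the 4 ABX libraries all lay under the 4 non-ABX libraries, and the log2 fold change was -0.34 (SE 0.14, adjusted p = 0.326), which did not pass the test. Mog was at 31.05, 29.2 and 33.3 CPM in pre non-ABX, 39.2, 36.8, 30.97 and 34.5 in pre ABX, 30.2, 29.5, 27.5 and 32.6 in post non-ABX, and 40.1, 27.8, 27.8 and 33.95 in post ABX libraries. Its highest libraries were both ABX replicates 1, and its groups overlapped.

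Opalin encodes a transmembrane glycoprotein of the paranodal loops. Its level was 11.3, 10.4 and 10.4 CPM in pre non-ABX, 14.9, 13.5, 11.4 and 12.2 in pre ABX, 9.94, 9.398, 9.07 and 9.53 in post non-ABX, and 12.5, 9.08, 8.502 and 11.5 in post ABX libraries. Before extinction all 4 ABX libraries were above the 3 non-ABX libraries, and the log2 fold change was 0.28 (SE 0.12, adjusted p = 0.312). In non-ABX mice the 4 libraries after extinction lay below the 3 before, while in ABX mice the stages overlapped. Post minus pre was -0.33 (SE 0.11, adjusted p = 0.21) in ABX mice and -0.25 (SE 0.08, adjusted p = 0.14) over both arms, so Opalin was not called. The other 7 genes of this group, Cldn11 (a tight junction claudin), Ermn (a cytoskeletal protein of the sheath), Mal and Pllp (proteolipids of membrane rafts), Tspan2 (a tetraspanin), Gjb1 (connexin 32 of gap junctions) and Hapln2 (a link protein of nodal matrix), were each within the range of the group. Over all 13 the log2 fold changes ran from -0.27 to 0.28 for ABX before extinction, -0.34 to 0.24 for ABX after it, -0.18 to 0.20 for stage in non-ABX mice and -0.33 to 0.17 for stage in ABX mice.

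**Figure D2:**
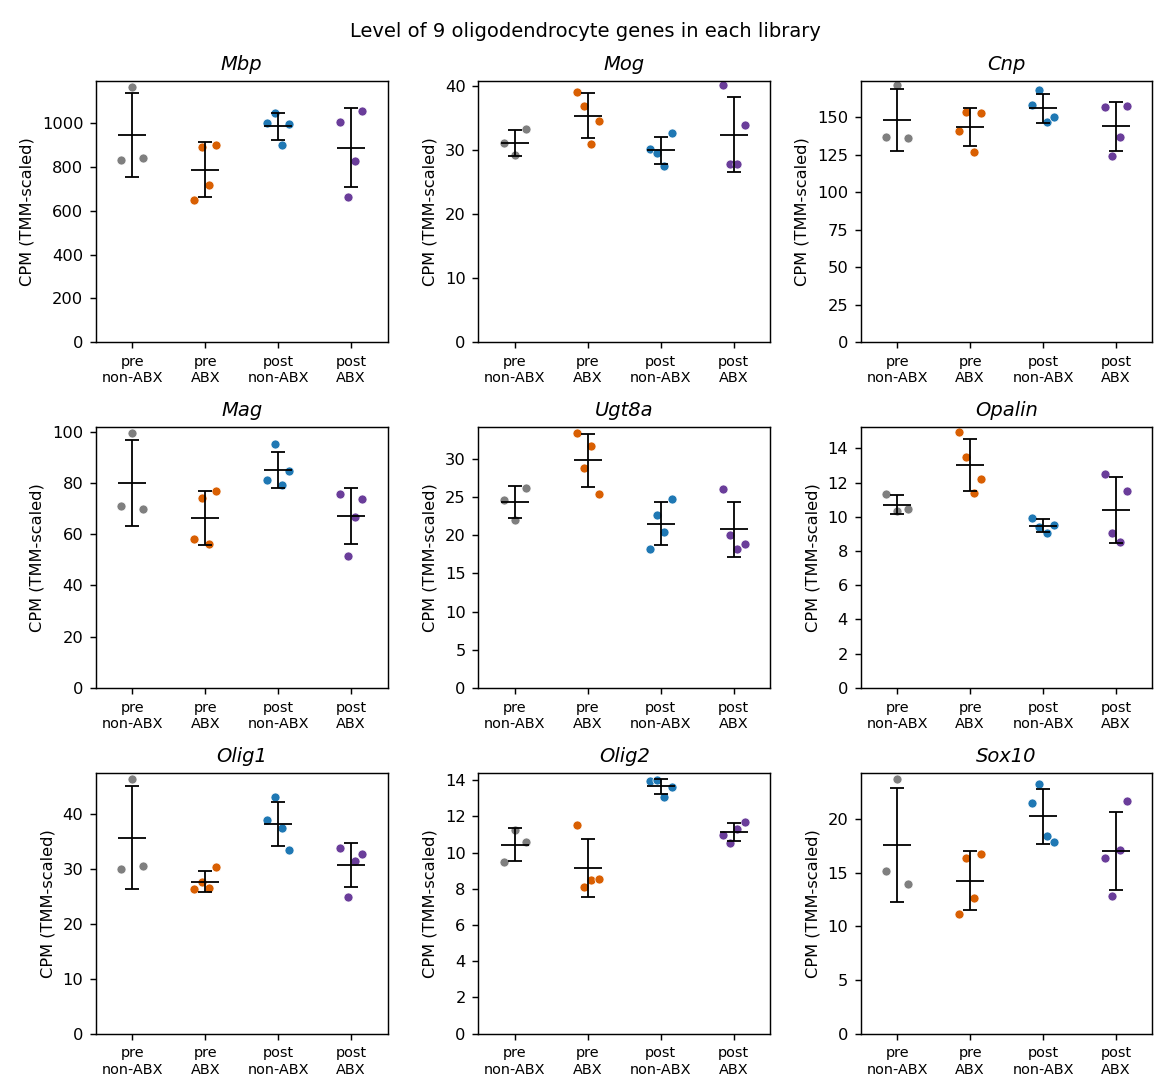
Level of 9 members in each library, in CPM on linear axes from 0, by group (points are libraries, black marks the group mean ± SD). The 4 post non-ABX libraries of Olig2 sit at 13.1 to 14.01 CPM, above all other libraries, while the groups of Mbp, Mog and Cnp overlap.

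Among 7 enzyme genes 0 were called, with medians of 0.077, -0.067, 0.023 and -0.11 in the 4 pairwise comparisons and -0.076 and -0.017 for averaged ABX and averaged stage. Ugt8a, the transferase that makes the galactocerebroside of myelin, was at 24.7, 22.1 and 26.2 CPM in pre non-ABX, 33.4, 28.8, 31.7 and 25.4 in pre ABX, 18.2, 22.6, 20.5 and 24.8 in post non-ABX, and 26.1, 20.02, 18.2 and 18.9 in post ABX libraries. Pre ABX replicates 1, 2 and 3 were the highest of the 15 libraries and reached 33.4 CPM. Pre ABX replicate 4 at 25.4 CPM lay below pre non-ABX replicate 4 at 26.2 CPM and post ABX replicate 1 at 26.1 CPM. Post minus pre in ABX mice was -0.52 (SE 0.12, adjusted p = 0.109), the smallest p of any member there, and over both arms -0.35 (SE 0.09, adjusted p = 0.0725). The first was called without pre ABX replicate 4 (adjusted p = 0.0404) or post ABX replicate 1 (0.0296), and the second without either of these (0.0306 and 0.0298), pre non-ABX replicate 3 (0.0327) or post non-ABX replicate 4 (0.0484). Leaving out other libraries raised the edgeR adjusted p to as much as 0.338 for the first and 0.244 for the second. With GC removed they were -0.33 (edgeR adjusted p = 0.0924) and -0.20 (0.129), neither called. The ABX difference after extinction minus that before it was -0.34 (SE 0.18, adjusted p = 1). Aspa, which encodes aspartoacylase, the enzyme that frees acetate from N-acetylaspartate for lipid synthesis, was at 9.46, 6.42 and 8.04 CPM in pre non-ABX, 12.2, 8.08, 10.03 and 7.12 in pre ABX, 7.74, 5.28, 6.88 and 8.11 in post non-ABX, and 9.92, 6.69, 6.49 and 8.103 in post ABX libraries. Pre ABX replicate 1 was highest and post non-ABX replicate 2 lowest, and groups overlapped. Fa2h, the hydroxylase that makes 2-hydroxy fatty acids for myelin galactolipids, was at 13.8, 16.01 and 14.3 CPM in pre non-ABX, 15.0004, 18.2, 13.4 and 15.3 in pre ABX, 15.2, 17.8, 15.1 and 16.6 in post non-ABX, and 15.2, 11.4, 12.995 and 15.7 in post ABX libraries. The Fa2h difference of ABX effects was -0.31 (SE 0.16, adjusted p = 1). Gal3st1 (sulfatide synthesis), Enpp2, Qdpr (a pteridine reductase) and Carns1 (carnosine synthesis) complete this group, whose fold changes ran from -0.45 to 0.29 for ABX before extinction and from -0.52 to 0.26 for stage in ABX mice.

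All 5 transcription factor genes were lower in ABX than in non-ABX mice in fitted value at both stages (medians -0.30 and -0.30) and higher after extinction in both arms (0.17 and 0.25), and 4 of 5 had an unadjusted p under 0.05 for ABX averaged over stages, as had 30.6% of all genes. They share a high GC content, 57.6% to 64.3%, and with the GC trend of each library removed their averaged ABX differences were -0.014 in Olig1, 0.0082 in Olig2, 0.054 in Sox10, -0.016 in Myrf and -0.57 in Nkx6-2. Their averaged stage differences were then -0.075 in Olig1, 0.15 in Olig2, 0.027 in Sox10, -0.023 in Myrf and 0.16 in Nkx6-2, so neither direction was shared by all 5. Olig2, a basic helix-loop-helix factor of oligodendrocyte lineage commitment, was at 9.46, 11.2 and 10.6 CPM in pre non-ABX, 11.5, 8.08, 8.495 and 8.53 in pre ABX, 13.9, 14.01, 13.1 and 13.6 in post non-ABX, and 10.96, 10.5, 11.3 and 11.7 in post ABX libraries. The 4 post non-ABX libraries lay above the other 11, and after extinction the ABX libraries did not overlap with them. Group means were 10.4 ± 0.903 CPM (SD, n = 3) and 9.16 ± 1.59 CPM (SD, n = 4) before extinction and 13.6 ± 0.433 CPM (SD, n = 4) and 11.1 ± 0.484 CPM (SD, n = 4) after it. Averaged over both arms Olig2 rose after extinction, and the log2 fold change was 0.34 (SE 0.07, adjusted p = 0.0409). In non-ABX mice alone it was 0.39 (SE 0.11, adjusted p = 0.629), and for ABX after extinction -0.30 (SE 0.10, adjusted p = 0.274) and averaged over stages -0.24 (SE 0.07, adjusted p = 0.0717), none of these 3 called. With the GC trend of each library removed the stage difference was 0.15 (edgeR adjusted p = 0.502), and the call was lost on leaving out any of 10 of the 15 libraries (pre ABX replicates 2 and 3, pre non-ABX replicates 1 and 4, post ABX replicates 1, 3 and 4, post non-ABX replicates 1, 2 and 3; adjusted p up to 0.134). The 8 striatal markers, all detected in every library, summed to 248 to 267 CPM in pre non-ABX, 242 to 263 in pre ABX, 297 to 328 in post non-ABX and 279 to 310 in post ABX libraries. A large part of this sum was Pde10a alone, with group means of 105, 93.4, 156 and 120 CPM in the same order. For averaged stage 5 of the 8 markers were higher and 3 lower. The part of these markers in the Olig2 result was not tested. Olig2 overlaps the gene model Gm52261 in the annotation, and the library kit does not keep strand.

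Olig1 encodes a related factor and lies near Olig2 on chromosome 16 (mm10, Olig1 at 91269769 to 91271939, Olig2 at 91225550 to 91228677). It was at 30.01, 46.4 and 30.6 CPM in pre non-ABX, 26.2, 27.5, 26.5 and 30.3 in pre ABX, 38.9, 43.02, 37.3 and 33.4 in post non-ABX, and 33.8, 24.8, 31.5 and 32.7 in post ABX libraries. Pre non-ABX replicate 3 and post non-ABX replicate 2 were the highest libraries. Its ABX log2 fold changes were -0.37 (SE 0.14, adjusted p = 0.311) before extinction, -0.31 (SE 0.13, adjusted p = 0.336) after it and -0.34 (SE 0.10, adjusted p = 0.068) averaged, none called. With GC removed the difference before extinction was 0.027, on the other side of 0. Without pre non-ABX replicate 3 it was -0.13 and the averaged one -0.22, while the averaged difference was called without pre ABX replicate 4 (adjusted p = 0.0302) or pre non-ABX replicate 4 (0.0474). Nkx6-2, a homeodomain repressor, was at 0.776, 2.02 and 0.535 CPM in pre non-ABX, 0.265, 0.48996, 0.4696 and 0.746 in pre ABX, 1.302, 1.42, 1.33 and 0.947 in post non-ABX, and 0.468, 0.473, 0.866 and 1.06 in post ABX libraries. Pre non-ABX replicate 3 was the highest library and pre ABX replicate 1 the lowest, with 102 and 12 counts. Its ABX differences were -1.15 (SE 0.42, adjusted p = 0.311) before extinction and -0.97 (SE 0.28, adjusted p = 0.0683) averaged. Without pre non-ABX replicate 3 they were -0.41 (adjusted p = 0.992) and -0.60 (0.263), and the averaged one was called without pre ABX replicate 4 (0.0279) or pre non-ABX replicate 4 (0.0465). Sox10, the factor that drives myelin gene transcription with Myrf, was at 15.2, 23.7 and 13.97 CPM in pre non-ABX, 11.2, 16.4, 12.7 and 16.7 in pre ABX, 21.5, 23.3, 18.4 and 17.9 in post non-ABX, and 16.3, 12.9, 17.2 and 21.7 in post ABX libraries. Myrf, which is cleaved to act in the nucleus, was at 24.5, 34.3 and 27.4 CPM in pre non-ABX, 21.1, 25.7, 20.7 and 27.1 in pre ABX, 27.8, 32.2, 29.7 and 31.2 in post non-ABX, and 26.3, 23.5, 25.6 and 31.5 in post ABX libraries. Both overlapped in each of the 4 pairwise comparisons, with pre non-ABX replicate 3 highest for each.

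The 5 carrier, stress and cytoskeleton genes had 0 called members, with medians of -0.050, -0.16, 0.075 and 0.065 in the pairwise comparisons. Trf encodes the iron carrier transferrin, made by oligodendrocytes and choroid plexus, and was at 117, 129 and 123 CPM in pre non-ABX, 121, 132, 116 and 123 in pre ABX, 113, 125, 115 and 131 in post non-ABX, and 131, 97.7, 98.04 and 106 in post ABX libraries. Its ABX difference after minus before extinction was -0.16 (SE 0.13, adjusted p = 1), and -0.27 without post ABX replicate 1. Choroid plexus markers summed to 4.87 to 8.10 CPM in 14 libraries and to 19.3 CPM in post ABX replicate 1, where Trf was at 131 CPM, beside 132 CPM in pre ABX replicate 2. Of the 8 markers Ttr, Folr1, Kl, Kcnj13, Clic6 and Aqp1 had counts in every library (Ttr up to 11.3 CPM), Slc4a5 was at 0 in 1 library and Otx2 at 0 in 12, and their part in the Trf values was not tested. Cryab was at 46.9, 59.7 and 48.3 CPM in pre non-ABX, 42.8, 55.96, 40.7 and 55.5 in pre ABX, 54.5, 60.4, 49.6 and 52.98 in post non-ABX, and 55.1, 40.1, 45.9 and 50.1 in post ABX libraries. Ndrg1, a gene named for N-myc regulation and needed for peripheral myelin, was at 70.4, 77.1 and 72.04 CPM in pre non-ABX, 70.6, 70.2, 62.6 and 79.2 in pre ABX, 76.3, 73.8, 67.2 and 67.8 in post non-ABX, and 83.99, 60.2, 70.1 and 81.9 in post ABX libraries. Groups overlapped for both. Apod, the lipocalin apolipoprotein D, was at 52.9, 50.1 and 46.2 CPM in pre non-ABX, 71.7, 49.4, 56.2 and 66.8 in pre ABX, 63.9, 57.2, 63.5 and 49.2 in post non-ABX, and 67.6, 54.99, 58.2 and 74.5 in post ABX libraries, with a stage log2 fold change of 0.23 (SE 0.13, adjusted p = 0.896) in non-ABX mice. Gsn, the actin-severing gelsolin, was at 41.2, 52.6 and 36.7 CPM in pre non-ABX, 36.6, 41.4, 35.05 and 50.3 in pre ABX, 56.1, 56.1, 52.4 and 43.5 in post non-ABX, and 45.9, 35.8, 46.8 and 51.1 in post ABX libraries, with 0.26 (SE 0.15, adjusted p = 0.896) in the same comparison. The Gsn value was 0.42 without pre non-ABX replicate 3 and 0.16 without pre non-ABX replicate 4. Fibroblasts also express Apod and Gsn, and the 10 fibroblast markers, all detected in every library, summed to 149 to 201 CPM in pre non-ABX, 162 to 227 in pre ABX, 154 to 253 in post non-ABX and 157 to 198 in post ABX libraries. Their part in these values was not tested. The remaining 3 genes are Ppp1r14a (a phosphatase inhibitor), Tmem125 and Tmem88b. Tmem88b was at 29.2, 28.9 and 30.6 CPM in pre non-ABX, 38.7, 33.95, 28.8 and 30.1 in pre ABX, 25.2, 28.97, 25.03 and 28.4 in post non-ABX, and 31.5, 25.5, 22.9 and 27.7 in post ABX libraries. Its post minus pre difference in ABX mice was -0.29 (SE 0.10, adjusted p = 0.215).

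Counted by libraries that do not overlap, 1 member, Opalin, was higher with ABX before extinction (3.62% of all genes were higher in this way) and 0 were lower (3.14%, or 6.76% either way). After extinction 2 members, Mag and Olig2, were lower with ABX (6.36%) and 0 higher (4.74%, or 11.1% either way). Stage separated Olig2 upward (2.33%) and Opalin downward (3.57%, or 5.91% either way) in non-ABX mice and 0 members in ABX mice (2.69% higher, 2.78% lower, 5.47% either way).

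Member fold changes followed GC content, least so for the difference of ABX effects. Over the 33 members Pearson's r and Spearman's rho between GC content and log2 fold change were -0.77 and -0.84 for ABX before extinction, -0.75 and -0.81 after it, 0.70 and 0.69 for stage in non-ABX mice and 0.74 and 0.67 in ABX mice. Over the 16216 tested genes with a GC value they were -0.60 and -0.67, -0.43 and -0.51, 0.39 and 0.51, and 0.55 and 0.63. The points share the same libraries and genes are not independent replicates, so these are descriptions without a p. For averaged ABX the member values were -0.78 and -0.84 and for averaged stage 0.77 and 0.70, and for the difference of ABX effects 0.43 and 0.38 (0.25 and 0.37 over all genes). Of 17 members at or above the median GC content 0 were higher and 17 lower with ABX averaged over stages (median -0.15), and 13 were higher and 4 lower after extinction (0.10). Of the 16 below it 11 were higher and 5 lower with ABX (0.11), and 6 were higher and 10 lower after extinction (-0.066). The same trend ran through all genes: the averaged ABX median was 0.13 in 678 genes between 37.5% and 40% GC and -0.37 in 149 genes between 62.5% and 65%, and the averaged stage medians there were -0.15 and 0.22.

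**Figure D3:**
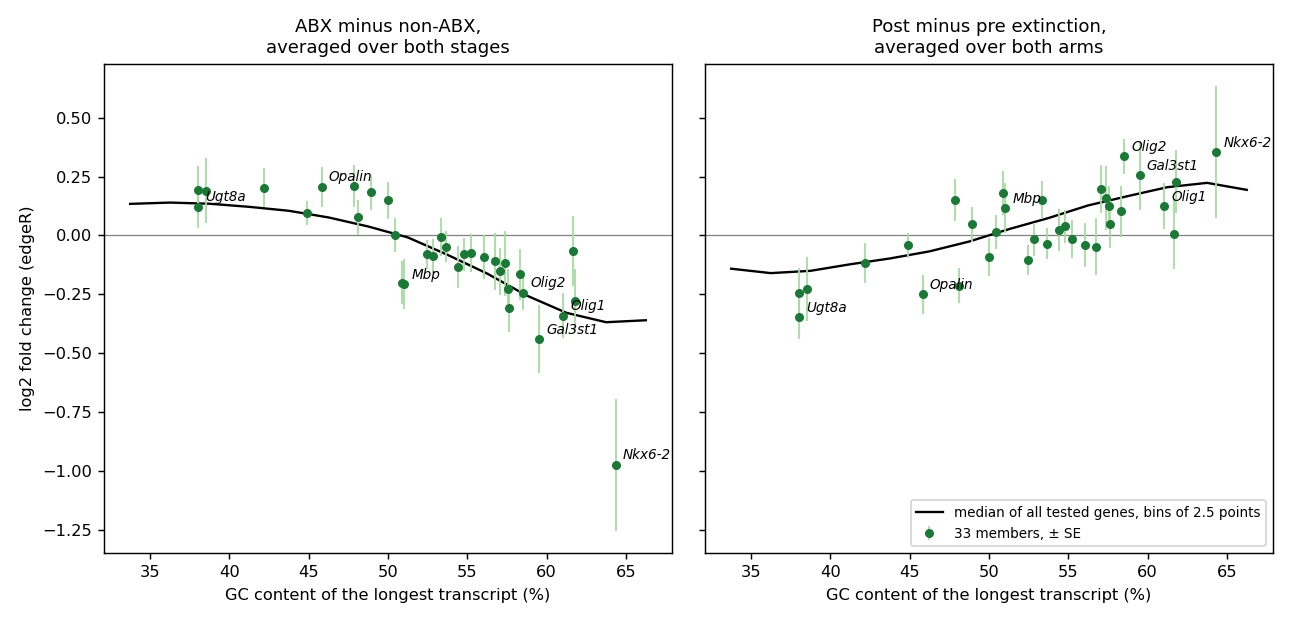
Log2 fold change of the 33 members (green points, ± SE) against transcript GC content in percent, for ABX averaged over stages (left) and stage averaged over arms (right), with the median of all tested genes in bins of GC content as a black line. Members run downward with GC content for ABX (r = -0.78) and upward for stage (0.77), as the line does.

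The libraries carried this trend unequally. The median log2 deviation of the 25% of genes richest in GC minus that of the 25% poorest ran from -0.22 to 0.49 in pre non-ABX, -0.65 to 0.069 in pre ABX, 0.072 to 0.45 in post non-ABX and -0.19 to 0.19 in post ABX libraries. The libraries at the ends, pre ABX replicate 1 (-0.65) and pre non-ABX replicate 3 (0.49), were also among those at the extremes of many members. Not all such libraries lay at the ends: post ABX replicate 2, lowest for 10 members, was at -0.19, and post ABX replicate 1, highest for 5, at -0.15. With a GC spline removed from each library, the averaged ABX comparison had 21 members higher and 12 lower (median 0.046), and averaged stage 14 and 19 (-0.063). Fold changes were smaller in size for 30 of 33 members in the first and 19 of 33 in the second, and r and rho with GC were -0.25 and -0.17, and 0.18 and 0.16. The spline was fitted to all genes with a GC value, members included, so the fall in these correlations follows largely from the removal itself. The sign of the member median turned in the averaged ABX and stage comparisons alike, and 0 members were called in any of the 7 comparisons (smallest edgeR adjusted p = 0.0592). Nkx6-2 then had -0.57 for averaged ABX and Ugt8a -0.20 for averaged stage, neither called.

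**Figure D4:**
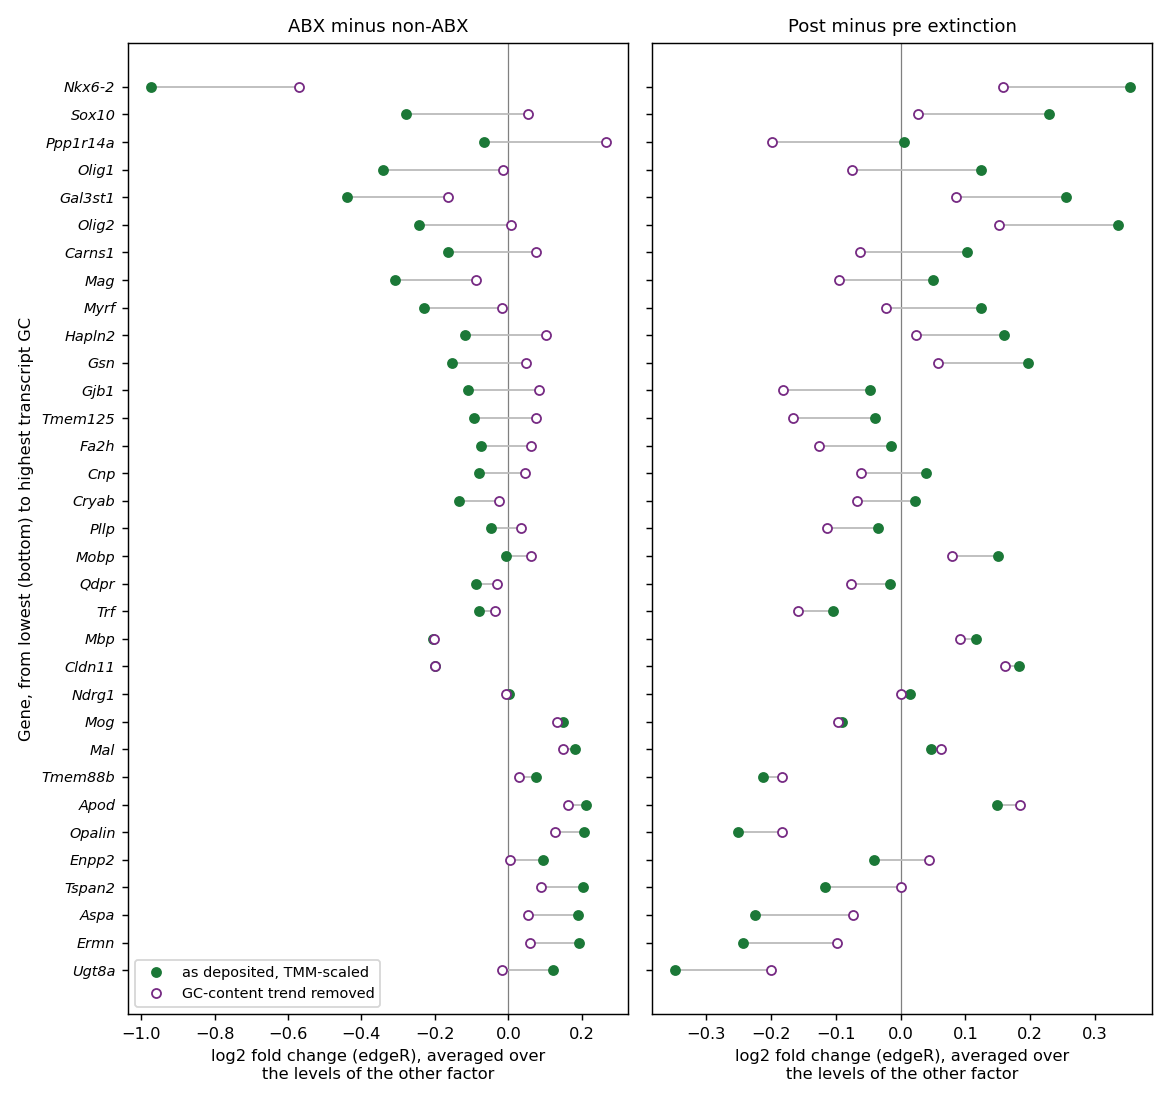
Log2 fold change of each member (vertical axis, ordered by GC content) without (filled green) and with (open purple) the GC trend of each library removed, for averaged ABX (left) and averaged stage (right). For ABX 30 of 33 open points lie nearer 0 than the filled ones, and Nkx6-2 is lowest at -0.57.

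Other genes of the pathway were taken from lists of related genes. Of 37 other oligodendrocyte genes 0 were called for averaged ABX (20 higher, 17 lower, median 0.0039) and 1 for averaged stage (13 and 24, median -0.034). That gene was Elovl7, a fatty acid elongase, which fell after extinction from 13.4 ± 0.647 (SD, n = 3) and 15.2 ± 1.99 (SD, n = 4) to 11.2 ± 0.958 and 11.3 ± 1.27 CPM (SD, n = 4 each) in non-ABX and ABX mice, a log2 difference of -0.35 (SE 0.08, edgeR adjusted p = 0.0405). Its call was kept with GC removed (-0.23, adjusted p = 0.0415) but lost in 11 of 15 fits with a library left out (all but those without pre ABX replicate 4, pre non-ABX replicate 3, post ABX replicate 1 or post non-ABX replicate 4; adjusted p up to 0.135) and with scaling to library totals (0.0534). The fold changes in those left-out fits ran from -0.39 to -0.30. Of 35 regulators of myelination, such as receptors and axonal signals, 0 were called for averaged ABX (9 higher, 26 lower, median -0.058) and 1 for averaged stage (19 and 16, 0.031). Erbb4, a neuregulin receptor found mainly on interneurons, fell from 30.5 ± 3.96 (SD, n = 3) and 29.5 ± 3.80 CPM (SD, n = 4) to 20.1 ± 4.24 and 19.6 ± 2.24 CPM (SD, n = 4 each), a log2 difference of -0.60 (SE 0.10, adjusted p = 0.0168; -0.47 and 0.0286 with GC removed). The Erbb4 call was lost in 2 fits, without pre non-ABX replicate 4 (0.0618) or post non-ABX replicate 3 (0.0529). In each pairwise comparison and the difference of ABX effects the main edgeR fit called 0 genes of both lists. At an unadjusted p under 0.05 the pairwise comparisons, in the order used above, had 1, 7, 4 and 10 oligodendrocyte genes. These were 2.70%, 18.9%, 10.8% and 27.0% of that list. Regulators numbered 8, 11, 3 and 7 (22.9%, 31.4%, 8.57% and 20%). The shares of all genes were 15.97%, 13.3%, 4.94% and 16.6%. For averaged ABX 9 oligodendrocyte genes (24.3%) and 15 regulators (42.9%) had such a p, against 30.6% of all genes. In that comparison DESeq2 called 1 oligodendrocyte gene higher and 1 lower, and 0 regulators higher and 9 lower. It called 11.7% of all genes there. The genes of smallest p in these lists were Josd2 (-0.89, adjusted p = 0.311) and Gpr17 (-0.29) for ABX before extinction, Jam3 (0.25, 0.165) and Cntnap1 (-0.36, 0.241) after it, Car14 (0.40, 0.83) and Erbb4 (-0.60, 0.568) for stage in non-ABX mice, and Elovl7 (-0.43, 0.113) and Igf1r (0.36, 0.08) in ABX mice. With GC removed more of these genes were called, though none of the 33 members. For averaged ABX they were Josd2 (-0.51, adjusted p = 0.016) and Efnb3 (0.39, 0.0354) among oligodendrocyte genes, and Lingo1 (-0.33), Cntnap1 (-0.17), Adgrg1 (0.13) and Thra (0.23) among regulators (adjusted p from 0.0214 to 0.0358). For averaged stage Car14 (0.35), Slco3a1 (0.27) and Plekhh1 (-0.25) joined Elovl7, and Igf1r (0.24), Sox8 (-0.32) and Adgrg1 (-0.15) joined Erbb4 (adjusted p from 0.0185 to 0.0468). Igf1r was then also called for stage in ABX mice (0.36, 0.0399). Over all genes GC removal gave calls for 3.78% in averaged ABX, 1.93% in averaged stage and 0.458% in stage in ABX mice. Markers of oligodendrocyte precursors summed to 794 to 911 CPM over the 15 libraries. For averaged ABX 5 of these 12 markers were higher and 7 lower, from -0.52 to 0.29. At an unadjusted p under 0.05 there were 8 (66.7%), against 30.6% of all genes. The main edgeR fit called 0, where it called 0.624% of all genes. DESeq2 called 6 (2 higher, 4 lower), where it called 11.7% of all genes. With GC removed edgeR called 1, Cspg4 (-0.26, adjusted p = 0.0447), against 3.78% of all genes.

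Short motifs were looked for in RefSeq promoters (250 bases before to 50 after the start, GRCm38.p6) on both strands, for which 23 members had an entry. ACAAAG or ACAATG, the core of SOX factor sites, occurred in 11 (47.8%) and in 28.8% of 27025 promoters. CAGCTG or CAGATG, E-box forms, occurred in 10 (43.5%) and in 30.4% of all. A match here describes letters only, and no list-wide test was made.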

How the data were processed

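RNA of dissected medial prefrontal cortex was measured in 15 libraries made with a SMARTer low-input kit, which does not keep strand. The authors deposited raw counts per Entrez gene, without normalization. CASAVA 1.8.2, STAR 2.3.0 and build mm10 were used, per the submitters' processing notes; the sources used here do not give the counting program or its annotation. Identifiers were matched to symbols through RefSeq (25275 of 27179, 99.7% of counts). Libraries held 44254906 to 57929503 counts with a biological coefficient of variation of 11.2%, so for all but the lowest members the spread between libraries, not counting error, sets the precision.

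The analysis used edgeR 4.0.16 under R 4.3.3. Low genes were dropped by filterByExpr (minimum count 10, minimum total 15), TMM scaled the libraries (0.969 to 1.03), and quasi-likelihood models had 4 group means, no covariate and all 15 libraries. Tests were two-sided, with Benjamini-Hochberg adjustment over 16816 genes. The standard error of a fold change is its size over the root of F. CPM values are TMM-scaled, and group SDs are over libraries. GC content came from the longest GENCODE M21 transcript and was available for 96.4% of tested genes and 33 of 33 members. To remove it, a spline with 5 degrees of freedom was fitted to each library's log2 deviations and entered as an offset. The code was tested on simulated data.

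The members and lists were chosen with earlier results of these data known. Every member is named with its level; fold changes are given for the 3 members of smallest unadjusted p in each of 7 comparisons and for called members, and values in every library for those and for Mbp, Mog, Mobp, Cnp, Ugt8a, Aspa, Myrf, Sox10, Olig2, Cryab, Ndrg1 and Apod. Genes of the other lists are named where called, or as the one of smallest p in the pathway lists. Alternatives were DESeq2 1.42.0, limma 3.58.1 voom with quality weights, RLE factors, library totals, no filter, a mean of at least 1 CPM, a block on replicate number, GC removal with and without it, the compared groups alone and each library left out.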

Additional observations from a re-analysis of the deposited data

Results flagged for a closer look

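In each group of 4 libraries the highest and lowest value of each member was compared with the nearest other library by Dixon's ratio, 99 tests of a member in a group, of which about 1 in 20 would pass by chance. There were 2 that passed, both in pre ABX replicate 1. Mal stood at 145 CPM there, where the nearest library had 124 and the lowest 120 CPM (ratio 0.85). Olig2 stood at 11.5 CPM there, where the nearest had 8.53 and the lowest 8.08 CPM (ratio 0.869). Olig2 was called for stage averaged over arms also without this library.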

How the results depend on the processing

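For ABX before extinction, ABX after extinction and the difference of ABX effects, 0 members were called under every alternative run. For stage in non-ABX mice voom with quality weights called 8 members (24.2%, against 19% of all genes). For stage in ABX mice DESeq2 called 1 (Ugt8a, against 1.71% of all genes), voom 2 (Ugt8a and Olig2, against 2.77%) and fits with a library left out 0 to 1. For averaged ABX DESeq2 called 5 (Mag, Gal3st1, Olig1, Olig2 and Nkx6-2, 15.2% against 11.7%), voom 1 (Olig2, 3.03% against 5.36%), and fits with a library left out 0 to 5. For averaged stage DESeq2 called 2 (Ugt8a and Olig2, 6.06% against 4.19%), voom 13 (39.4% against 37.8%), GC removal 0 and fits with a library left out 0 to 4. Olig2 was called for averaged stage by DESeq2 (adjusted p = 0.00159) and voom (0.000649) and under RLE scaling, library totals and both other filters. With GC removed 14 of 33 member fold changes changed sign for averaged ABX, 9 for averaged stage and 6 to 12 in the other comparisons. Of the fold changes printed with an adjusted p, 2 did so: Olig1 for ABX before extinction (0.027, and 0.035 with the replicate block) and Olig2 for averaged ABX (0.0082, and 0.015 with the block). The member median changed sign with GC removed in 5 of 7 comparisons, all but ABX after extinction and the difference of ABX effects, and in 10 of 75 fits with a library left out (0 for ABX after extinction and averaged ABX), so its direction is not firm. Causes of these differences were not tested.

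Replicate numbers were not shown to pair libraries: of 21 same-numbered pairs 8 had a correlation over 0.1 (-0.49 to 0.37), and 5 of 15 libraries matched their own number best. With the replicate number as a block averaged stage called 0 members (Olig2 0.35, edgeR adjusted p = 0.074) and did not call Elovl7 (-0.35, 0.0777), where 0.571% of all genes were called. GC removal with the block called 0 members for averaged stage (3.44% of all genes). For averaged ABX it called 2 (Mal and Nkx6-2), 6.06% against 10.6% of all genes. Over all genes, averaged ABX called 105 (88 to 1963 under other settings, 4 to 3057 with a library left out) and averaged stage 162 (96 to 6358, and 14 to 2262). Stage in ABX mice called 16 (5 to 465, and 3 to 237), ABX after extinction 3 (3 to 432, and 0 to 6), ABX before it 1 (1 to 15, and 1 to 28), and stage in non-ABX mice 0 (0 to 3191, and 0 to 1). Fitting the compared groups alone was possible only for the 4 pairwise comparisons. Nkx6-2, with 12 to 102 counts, had the lowest counts of the members and the highest within-group SD of log2 CPM (0.60).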

Other observations

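Averaged over stages, most vessel markers were lower with ABX, beside the members that did not pass. All 12 endothelial markers were lower and 4 were called by edgeR, Flt1 (-0.48), Kdr (-0.41), Ly6c1 (-0.41) and Podxl (-0.53). Of 9 mural markers 8 were lower and 1 higher (0.17), and 4 were called lower, Acta2 (-0.90), Tagln (-0.54), Myh11 (-0.77) and Des (-0.83). Of all genes 0.464% were called lower. The 8 called markers were also called with GC removed, but only Podxl was called in every fit with a library left out (adjusted p up to 0.0219, and up to 0.132 for the others). Averaged over arms, the astrocyte water channel gene Aqp4 fell after extinction (-0.31, edgeR adjusted p = 0.0442; -0.19 and 0.0779 with GC removed) and the striatal phosphodiesterase gene Pde10a rose (0.47, 0.0212). Their adjusted p reached 0.16 and 0.0826 with a library left out.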
